A study of Mus musculus with 9 samples.

Results

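Superoxide dismutases, catalase and the methionine sulfoxide reductases were followed in cultured mouse lung cells with and without Nrf2, the transcription factor that drives many antioxidant genes. The 7 genes Sod1, Sod2, Sod3, Cat, Msra, Msrb2 and Msrb3 were chosen by name, and every probe set whose single gene symbol was one of them was taken, dim ones included. This gave 17 probe sets of 45037 on the array, for 7 of 18193 named genes. The 9 Affymetrix mouse arrays formed 3 groups of 3: Nrf2-/- cells supplemented with GSH, called knockout with GSH here, Nrf2-/- cells, called knockout, and Nrf2+/+ cells, called wild type. GSH is the usual abbreviation of glutathione, and the sources used here state neither its dose nor its time. The treatment field of all 9 arrays reads as untreated, and the group with GSH was taken from the source label. Per the labels every culture began as type II cells, the surfactant-making epithelium of the air sacs, from the lungs of female mice of strain ICR10 aged 2 months. Dispase-released cells were passed over IgG plates, to take out macrophages, and over culture dishes, to take out fibroblasts, before plating. All were kept for 5 days on a fibronectin and collagen surface, with keratinocyte growth factor in the medium. The labels give 1 tissue per array and leave unsaid whether replicate arrays stand for different mice or dishes, so the p-values reflect array-to-array spread alone, which could be technical. The second number of the title code splits each group into 2 arrays, called set 2, and 1 array, called set 3. Nothing says what that number stands for.

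Superoxide arises when oxygen takes up a stray electron, in mitochondria or at NADPH oxidases, and superoxide dismutases turn it into hydrogen peroxide and oxygen. SOD1 does so in the cytosol with copper and zinc, SOD2 in the mitochondrial matrix with manganese, and SOD3 outside the cell, where it binds heparan sulfate in the matrix and is abundant in lung. Catalase breaks down hydrogen peroxide, chiefly in peroxisomes. Methionine in proteins is oxidised to 2 forms of methionine sulfoxide. MSRA reduces one form and the MSRB enzymes the other, MSRB2 in mitochondria and MSRB3 in the endoplasmic reticulum, with thioredoxin as the usual reductant.

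Values are array signals in arbitrary units as deposited, scaled by the authors so that every array had the same trimmed mean. Signals of different probe sets are not set against each other. Nfe2l2, which encodes Nrf2, read 33.3 to 46.2 in knockout with GSH and 28.7 to 77.4 in knockout, against 3878.6 to 4172.8 in wild type, by its bright probe set 1416543_at. Its dim probe set 1457117_at read 121.0 to 188.9 in knockout with GSH and 34.4 to 68.6 in knockout, against 35.8 to 51.6 in wild type. The knockout groups and wild type also differed in sex-linked genes, although every label reads female: Xist read 2693.5 to 4776.6 in knockout with GSH and 2443.8 to 4642.9 in knockout, against 132.2 to 187.8 in wild type. The Y-linked Eif2s3y read 1.9 to 16.2 in knockout with GSH and 1.5 to 24.4 in knockout, against 701.3 to 936.3 in wild type. Y-linked Kdm5d and Uty were also higher on every wild-type array. By these genes the label female does not match the wild-type arrays, which read as male. Genotype and this difference in sex cannot be told apart in the comparisons with wild type. Of 11 type II cell markers on the array, Sftpc did not exceed the control level, that of the bacterial control probe sets (43.4 to 82.9 by array), on any of the 3 wild-type arrays, and the summed signal of the 11 was 10329 to 11821 in knockout with GSH and 5966 to 6868 in knockout, against 5662 to 6835 in wild type. In each comparison 22519 probe sets were tested with limma, with the set as a term, and a Benjamini-Hochberg adjusted p under 0.05 counted as called. Of the 17 probe sets 14 passed the filter on low signal that this test used.

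Between knockout and wild type, 8 of the 14 tested probe sets were called, 6 higher and 2 lower in knockout, where 29.1% of all probe sets were called. Between knockout with GSH and knockout 6 were called, 4 higher and 2 lower, against 35.4% of all. Between knockout with GSH and wild type 10 were called, 5 higher and 5 lower, against 44.7% of all. The median log2 difference of the 14 was 0.16, 0.11 and 0.05 in these comparisons, and that of all probe sets was 0.0026, 0.04 and 0.02. Several of the 14 read the same gene, so they are not separate genes. With the brightest probe set standing for each of the 7 genes, the counts higher and lower were 2 and 1, 1 and 2, and 1 and 3. The medians by gene were -0.08, 0.15 and -0.19, of the other sign in the first and last comparison. The groups did not overlap for 9, 7 and 9 of the 14, against 30.2%, 33.6% and 43.4% of all probe sets. The 3 comparisons share arrays, so their results are set side by side and not counted as separate evidence. The members differed widely among themselves. Sod3 was high in knockout alone, Sod2 was higher in both knockout groups than in wild type, Cat was lower in knockout than in wild type, and the 2 probe sets of Msrb3 differed from wild type in different directions. One of these, 1439151_at, had a geometric mean of 46.1 in wild type and passed the filter on mean signal (116) only through the knockout groups. Its calls against wild type, 1 in each of those counts of the 14 probe sets, are therefore not independent of how it was kept.

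Nrf2 acts by binding the antioxidant response element, so the DNA just upstream of these genes is shown. The RefSeq promoter table (GRCm38.p6) held 5 of the 7 genes. The 4 shown are the one with a match to that element and the others with a called difference. Each sequence is the 250 bases before the start site, 5′ to 3′ on the gene's own strand, and capitals mark matches to the motifs searched. Sod1 is at chr16:90220512-90220761 on the plus strand, Sod2 at chr17:13007589-13007838 on the plus strand, Cat at chr2:103485154-103485403 on the minus strand and Msrb3 at chr10:120898972-120899221 on the minus strand.
Sod1: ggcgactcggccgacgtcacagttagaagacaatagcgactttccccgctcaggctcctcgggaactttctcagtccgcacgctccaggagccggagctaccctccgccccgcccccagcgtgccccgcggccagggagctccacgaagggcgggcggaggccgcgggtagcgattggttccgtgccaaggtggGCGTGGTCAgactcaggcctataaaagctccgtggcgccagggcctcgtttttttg
Sod2: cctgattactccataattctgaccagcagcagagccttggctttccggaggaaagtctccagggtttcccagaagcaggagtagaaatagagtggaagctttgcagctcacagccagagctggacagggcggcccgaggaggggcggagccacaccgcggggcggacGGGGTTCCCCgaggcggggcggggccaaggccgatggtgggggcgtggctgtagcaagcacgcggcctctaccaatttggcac
Cat: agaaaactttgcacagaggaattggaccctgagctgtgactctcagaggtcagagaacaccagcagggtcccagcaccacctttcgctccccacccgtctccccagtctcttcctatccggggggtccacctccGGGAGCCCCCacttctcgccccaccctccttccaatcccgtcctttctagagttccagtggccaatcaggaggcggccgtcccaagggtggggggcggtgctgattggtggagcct
Msrb3: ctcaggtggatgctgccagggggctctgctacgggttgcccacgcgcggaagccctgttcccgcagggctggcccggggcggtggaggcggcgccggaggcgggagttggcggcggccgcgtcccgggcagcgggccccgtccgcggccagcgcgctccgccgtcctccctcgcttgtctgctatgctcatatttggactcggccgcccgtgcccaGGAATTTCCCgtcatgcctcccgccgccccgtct
The motifs were the core of the antioxidant response element (TGACNNNGC), the AP-1 site (TGANTCA) and the NF-kB site, each on both strands. Matches did not overlap one another in these sequences. Of the 5 members in the table, Msrb2 included, 1 held the antioxidant response core, Sod1, beginning 56 bases before its start site. Over all 32851 promoter windows of this length 10.2% held it. None held the AP-1 site (0 of 5, against 6.75% of all), and 4 of 5 held the NF-kB site (7.25% of all): Sod2 at 83 bases, Cat at 116, Msrb3 at 34 and Msrb2 at 145 before the start. The base composition of these windows was 52.8% to 74.4% G and C, with a median of 52.4% over all windows. A match here is a description of the letters and not of binding, and sequence farther from the start sites was not analysed here.

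Sod3, the secreted superoxide dismutase, had the largest difference of the 7 genes between the knockout groups. Probe set 1417633_at read 150.4, 174.7 and 180.9 in knockout with GSH and 2249.2, 2616.8 and 1606.8 in knockout, against 228.9, 206.5 and 241.9 in wild type. All 3 knockout arrays stood far above the other 6, and the array of set 3 was the lowest of them. The means were 169 ± 16.1 in knockout with GSH and 2158 ± 511 in knockout, against 226 ± 17.9 in wild type (SD, n = 3 each). The signal in knockout was 9.39-fold that in wild type, a log2 difference of 3.23 ± 0.17 (SE, limma adjusted p = 1.2e-07). It was 12.6-fold lower in knockout with GSH than in knockout, a log2 difference of -3.65 ± 0.17 (SE, limma adjusted p = 2.0e-08). The first ranked 10 among the rises of all 22519 probe sets and the second ranked 29 among the falls. Within set 2 the log2 differences were 3.48 and -3.90, and between the single arrays of set 3 they were 2.73 and -3.15.

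Knockout cells with GSH and wild-type cells were close for this probe set. The 3 arrays with GSH lay below all 3 wild-type arrays, but the log2 difference of -0.42 (95% interval -0.79 to -0.05) was not called (limma adjusted p = 0.061), and it was called without the knockout array with GSH of replicate 4 (log2 difference -0.55, limma adjusted p = 0.041). The other Sod3 probe set, 1417634_at, was left out of the test by the filter on low signal. It read 23.8, 26.2 and 15.4 in knockout with GSH and 954.9, 932.9 and 584.4 in knockout, against 93.5, 78.7 and 47.9 in wild type. The order of the groups was the same as for the first probe set. With GSH all 3 signals lay at or below the control level of their arrays, so the fold against knockout is a bound, at least 13.3-fold lower with GSH, with the control level standing for the dim side. When no filter was used, limma called it between knockout and wild type (log2 difference 3.51, adjusted p = 1.8e-06). Knockout with GSH was then also called below both knockout and wild type, but these calls used its signals at or below the control level. The bound against wild type is at least 1.17-fold, and the calls with GSH do not bear on the bounds. Wild type was itself near the control level, with 47.9 against a level of 45.26 on its array of set 3.

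**Figure D1:**
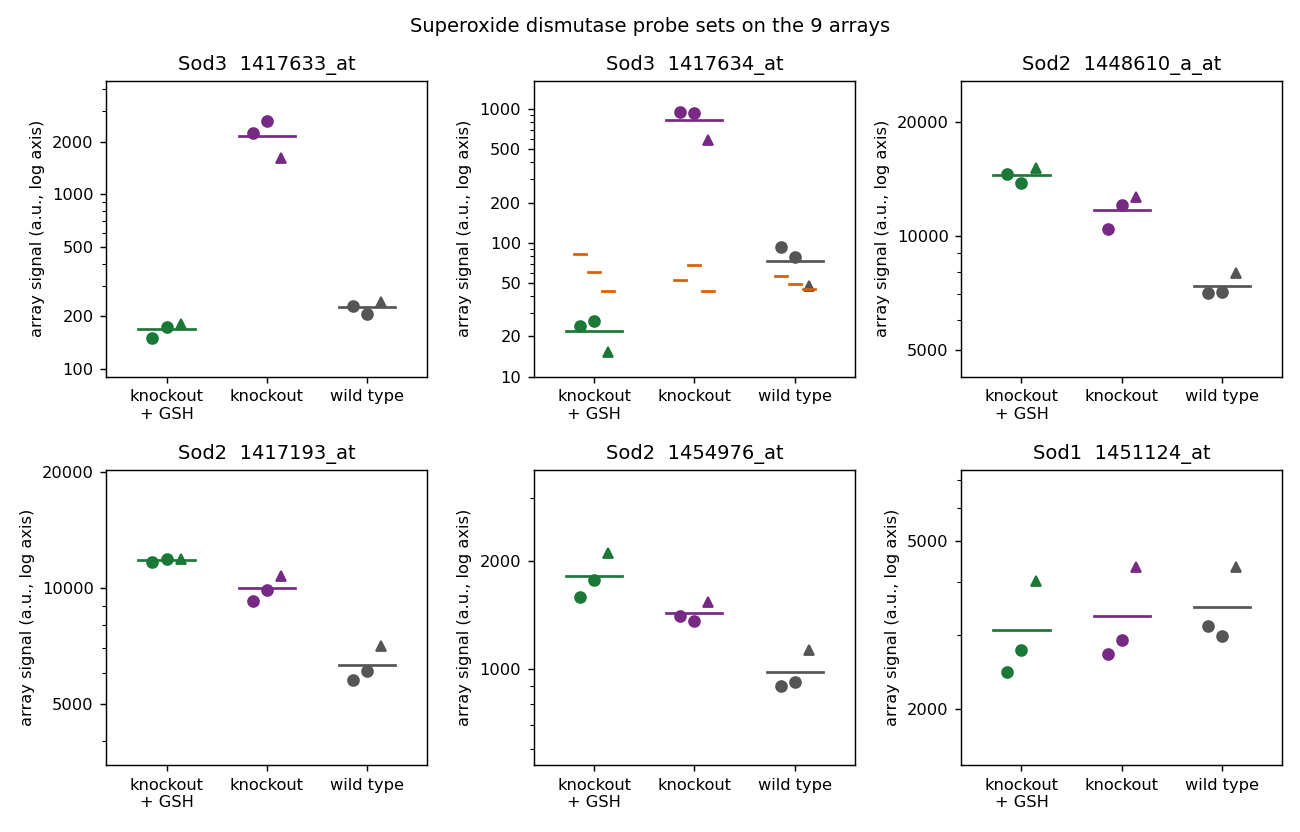
Array signal (arbitrary units, log axis) of both Sod3 probe sets, the 3 bright Sod2 probe sets and the brightest Sod1 probe set, with knockout with GSH at the left, knockout in the middle and wild type at the right of each panel. Circles are arrays of set 2, triangles arrays of set 3, long bars group means, and short orange bars each array's control level where signals were dim. Sod3 stands high in knockout only (2158 against 169 with GSH and 226 in wild type), Sod2 is lowest in wild type, and Sod1 differs more between sets than between groups.

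Markers of other cell types also moved on these arrays. Over all probe sets 14.6% were higher and 14.6% lower in knockout than in wild type. Between knockout with GSH and knockout 18.4% were higher and 17.0% lower. Of 13 measured fibroblast and mesenchymal markers, 9 were higher and 1 lower in knockout than in wild type (median log2 difference 0.40), and 0 were higher and 11 lower in knockout with GSH than in knockout (median -2.54). Their summed signal over the 14 genes on the array was 57081 to 66611 in knockout with GSH and 115947 to 151650 in knockout, against 92644 to 101923 in wild type. Mfap4 was at or below the control level in every group. Of 8 measured smooth muscle markers, 3 were higher and 1 lower in knockout than in wild type (median log2 difference -0.07). In knockout with GSH 0 were higher and 7 lower than in knockout (median -1.22). The summed signal of the 9 on the array was 28571 to 33275 in knockout with GSH and 40750 to 52801 in knockout, against 38412 to 42269 in wild type. Their part in the Sod3 difference was not tested, and in mixed RNA fewer cells of a type and less RNA per cell cannot be told apart. Of 10 measured genes of matrix and elastic fibre proteins, a list that shares Col1a1, Col1a2, Col3a1 and Dcn with those markers, 7 were higher and 1 lower in knockout than in wild type, and 0 were higher and 10 lower with GSH than without. Mfap5, which encodes a microfibril protein, read 434 ± 15.6 in knockout with GSH against 3228 ± 180.1 in knockout (log2 difference -2.90, limma adjusted p = 2.3e-10). Fbln5, needed for elastic fibres, was lower in knockout than in wild type (1542 ± 107 against 2659.6 ± 113, log2 difference -0.79, limma adjusted p = 1.5e-05), the opposite direction to Sod3.

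**Figure D2:**
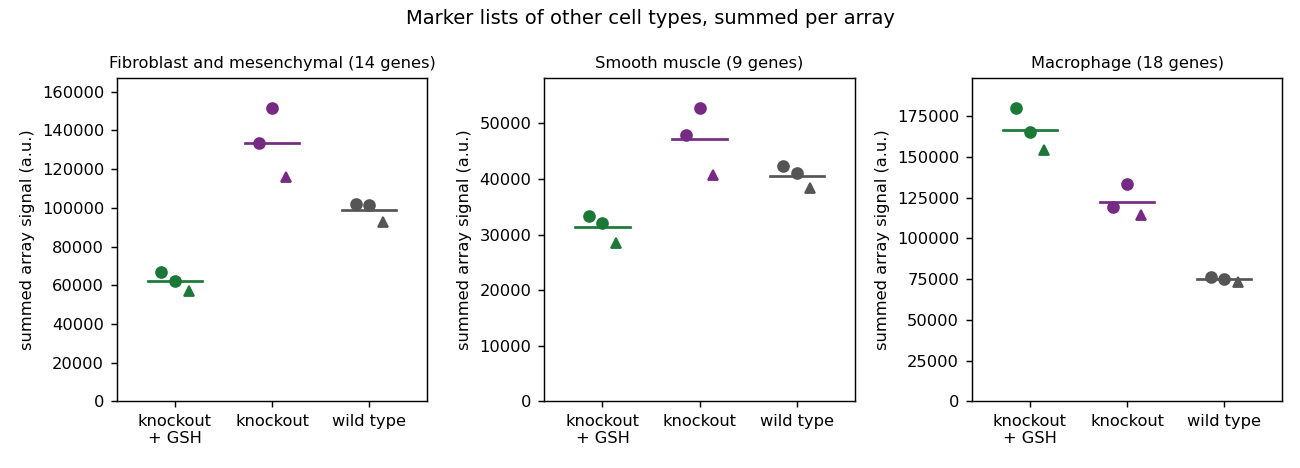
Summed array signal (arbitrary units, axes from 0) of the fibroblast and mesenchymal, smooth muscle and macrophage marker lists on each array, with knockout with GSH at the left, knockout in the middle and wild type at the right. Circles are arrays of set 2, triangles arrays of set 3 and bars group means. The fibroblast sum is lowest with GSH (57081 to 66611) and highest in knockout (115947 to 151650), and the macrophage sum is highest with GSH (154424 to 180055).

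Sod2, the manganese enzyme of mitochondria and a known NF-kB target, was higher in both knockout groups than in wild type. Probe set 1448610_a_at read 14558.7, 13785.8 and 15081.1 in knockout with GSH and 10430.6, 12028.4 and 12629.7 in knockout, against 7063.1, 7100.6 and 7955.9 in wild type. The 3 groups did not overlap and stood highest in knockout with GSH, then in knockout, then in wild type. Knockout was 1.58-fold above wild type (11696 ± 1137 against 7373 ± 505, SD, n = 3 each, log2 difference 0.66 ± 0.07 SE, limma adjusted p = 2.0e-05). Knockout with GSH, at 14475 ± 652, was 1.24-fold above knockout (log2 difference 0.31 ± 0.07 SE, limma adjusted p = 0.0032) and 1.96-fold above wild type (0.97 ± 0.07 SE, limma adjusted p = 3.3e-07).

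The bright probe set 1417193_at gave the same order, with 11659.8 to 11924.5 in knockout with GSH and 9236.2 to 10773.5 in knockout, against 5772.1 to 7087.4 in wild type. Its log2 differences were 0.66 for knockout over wild type and 0.25 for knockout with GSH over knockout (limma adjusted p = 2.1e-05 and 0.012). Probe set 1454976_at read 1583.4 to 2109.9 in knockout with GSH and 1363.8 to 1539.8 in knockout, against 899.6 to 1126.9 in wild type, with log2 differences of 0.56 and 0.33 (limma adjusted p = 2.0e-04 and 0.0045). The step between the knockout groups was small, and without the set as a term it was called for 1448610_a_at only among these 3 (adjusted p = 0.10 for 1417193_at and 0.12 for 1454976_at). Within set 2 the step of 1454976_at was not called either (log2 difference 0.27, limma adjusted p = 0.054). The dimmest, 1417194_at, read 264.5 to 319.8 in knockout with GSH and 184.1 to 390.8 in knockout, against 143.9 to 196.6 in wild type. Knockout overlapped wild type here. It was called in both comparisons with wild type (log2 differences 0.76 in knockout and 0.81 with GSH, limma adjusted p = 0.0081 and 0.0034) and not between the knockout groups (0.04, 95% interval -0.35 to 0.44, limma adjusted p = 0.88). The wild-type comparisons of 1417194_at were lost without the set as a term (adjusted p = 0.10 in knockout and 0.051 with GSH).

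The summed macrophage markers had the same order of groups as the bright Sod2 probe sets, but not every single marker did. Of 18 measured, 15 were higher and 2 lower in knockout than in wild type, where 14.6% of all probe sets were higher and 14.6% lower. In knockout with GSH 11 were higher and 2 lower than in knockout (18.4% and 17.0% of all). Against wild type 17 were higher and 0 lower with GSH (22.5% and 22.3% of all). Their summed signal was 154424 to 180055 in knockout with GSH and 114318 to 133590 in knockout, against 73374 to 76251 in wild type. Itgax (means 3387 in knockout with GSH, 914 in knockout and 2071 in wild type) and Siglecf (517, 133 and 471) were lowest in knockout. Marco, C1qa, C1qb, C1qc and Lyz2 had their highest mean in knockout. The part of the macrophage markers in the Sod2 difference was not tested. Of the remaining lists, those other than type II cells had only lower calls between knockout and wild type. Between the knockout groups the lists differed in direction. Their counts stand against the same shares of all probe sets. Between knockout and wild type 2 of 9 type II cell markers were higher and 2 lower, 0 of 8 type I cell markers were higher and 6 lower, 0 of 7 endothelial markers were higher and 3 lower, 0 of 5 mesothelial markers were higher and 5 lower, and 0 of 2 club and ciliated markers were higher and 1 lower. Between knockout with GSH and knockout these counts were 6 and 0 for type II cells, 3 and 0 for type I cells, 1 and 2 for endothelium, 1 and 4 for mesothelium, and 2 and 0 for club and ciliated cells.

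Sod1, the copper and zinc enzyme of the cytosol, differed little between the groups. Its brightest probe set 1451124_at read 2445.5, 2763.7 and 4015.0 in knockout with GSH and 2701.9, 2914.3 and 4332.5 in knockout, against 3145.4, 2971.2 and 4344.2 in wild type. The groups overlapped, and in each of them the array of set 3 was the highest, by 0.63, 0.63 and 0.51 on the log2 scale over set 2. Knockout and wild type were not told apart (log2 difference -0.08, 95% interval -0.24 to 0.07, limma adjusted p = 0.41), nor were the knockout groups (-0.11, 95% interval -0.26 to 0.04, limma adjusted p = 0.25). Knockout with GSH was called lower than wild type by this probe set (-0.19, limma adjusted p = 0.040). The call was lost under quantile normalisation (adjusted p = 0.080), without the filter (0.071) and within set 2 (0.070). It was also lost when 1 of 4 arrays was left out: knockout with GSH of replicate 2 or 4, or wild type of replicate 3 or 4 (adjusted p = 0.068 to 0.16).

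The second bright Sod1 probe set, 1459976_s_at, tracked the first (r = 0.95 over the 9 arrays, which share groups and sets). It read 1862.0, 2452.8 and 3173.7 in knockout with GSH and 2308.3, 2309.2 and 3440.4 in knockout, against 2985.4, 2643.7 and 3748.0 in wild type. Its log2 difference was -0.34 for knockout with GSH against wild type (limma adjusted p = 0.013), and this was lost without wild-type replicate 3 (adjusted p = 0.068) and without the set as a term (0.30). Knockout against wild type gave -0.23 (limma adjusted p = 0.0999). Probe set 1435304_at went the other way, with 326.1 to 376.9 in knockout with GSH and 314.3 to 350.1 in knockout, against 244.3 to 304.6 in wild type, and it was called in no comparison (log2 differences 0.07 to 0.30, limma adjusted p = 0.091 to 0.72). The dim probe set 1440222_at read 65.9 to 113.7 in knockout with GSH and 10.3 to 128.0 in knockout, against 57.2 to 115.9 in wild type. Probe set 1447761_x_at lay at or below the control level on every array of each group (1.5 to 24.2). Neither of these was tested.

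Cat, the gene of catalase, was lower in knockout than in wild type. Probe set 1416429_a_at read 1773.3, 1508.2 and 2742.5 in knockout with GSH and 1854.1, 1305.6 and 2235.9 in knockout, against 2575.2, 2762.5 and 3362.0 in wild type. Every knockout array lay below every wild-type array, while knockout with GSH overlapped both. The mean was 1799 ± 468 in knockout against 2899.9 ± 411 in wild type (SD, n = 3 each), 1.64-fold lower, with a log2 difference of -0.71 ± 0.13 (SE, limma adjusted p = 0.0015). Probe set 1416430_at read 1946.2, 1844.8 and 2423.0 in knockout with GSH and 1666.8, 1714.0 and 1998.6 in knockout, against 2026.0, 2311.1 and 2830.7 in wild type. Here too knockout lay wholly below wild type, by a smaller step of -0.40 ± 0.07 (SE, limma adjusted p = 0.0014). The arrays of set 3 were the highest in each group for both probe sets. Without the set as a term neither was called (adjusted p = 0.093 and 0.12). With the replicate number as a block neither was called (log2 differences -0.59 and -0.23, limma adjusted p = 0.057 and 0.16). Neither passed the submitters' fold rule (at least 6 of 9 pairs at 1.5-fold). Within set 2 both were called (log2 differences -0.78 and -0.36, limma adjusted p = 0.0083 and 0.023), and between the single arrays of set 3 the differences were -0.59 and -0.50. Cat lies on chromosome 2, as do Nfe2l2 itself and Msrb2.

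Knockout with GSH stood between the other groups for Cat. Against wild type it was lower by both probe sets, by 0.57 and 0.20 on the log2 scale (differences of -0.57 and -0.20, limma adjusted p = 0.0036 and 0.037). The first was lost without the set as a term (adjusted p = 0.12). The second was lost under quantile normalisation (adjusted p = 0.083), within set 2 (0.13), without the filter (0.066) and without any 1 of 5 arrays, wild type replicates 4 and 5 and knockout with GSH replicates 2, 3 and 4 (0.055 to 0.16). Against knockout, probe set 1416430_at was called higher with GSH (log2 difference 0.20, limma adjusted p = 0.046) and 1416429_a_at was not (0.15, 95% interval -0.13 to 0.43, limma adjusted p = 0.41). The call for 1416430_at was lost with the replicate number as a block (adjusted p = 0.12), without the filter (0.081), within set 2 (0.22) and in a fit of the 6 arrays concerned (0.0699). It was also lost without knockout replicate 2 or 4 and without any of the 3 arrays with GSH (0.059 to 0.18).

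Msrb3, the methionine sulfoxide reductase of the endoplasmic reticulum, was measured by 2 probe sets that disagreed in the comparisons with wild type. Probe set 1439151_at read 475.9, 435.8 and 279.9 in knockout with GSH and 775.2, 754.2 and 260.8 in knockout, against 53.1, 49.2 and 37.4 in wild type. Both knockout groups stood wholly above wild type, and the array of set 3 was the lowest of each group. In wild type 1 of 3 signals lay above the control level of its array, 49.2 against a level of 49.18, so wild type has only an upper limit here. With the dimmer wild-type arrays held at their control level, the signal was at least 10.7-fold higher in knockout than in wild type. For knockout with GSH it was at least 7.73-fold higher than in wild type. The limma calls belong to the fitted log2 differences of 3.54 and 3.07 and not to these bounds. They rest on wild-type signals at about the control level and are not independent of how the probe set was kept. No p-value is therefore given for them, though both were also called without the filter. Between the knockout groups the difference of -0.46 (95% interval -0.94 to 0.01) was not called (limma adjusted p = 0.12). It was called without knockout replicate 4 (log2 difference -0.79, limma adjusted p = 0.0082) and within set 2 (-0.75, limma adjusted p = 0.011), while the single arrays of set 3 differed by 0.10.

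The brighter Msrb3 probe set, 1454997_at, was lowest in knockout with GSH. It read 843.4, 980.9 and 1194.3 in knockout with GSH and 1251.3, 1250.9 and 1577.9 in knockout, against 1555.8, 1513.3 and 1708.2 in wild type. Knockout with GSH lay wholly below both other groups, and knockout overlapped wild type. The mean with GSH was 1006 ± 177, against 1360.0 ± 189 in knockout (log2 difference -0.44 ± 0.08 SE, limma adjusted p = 0.0014) and 1592 ± 102 in wild type (-0.68 ± 0.08 SE, limma adjusted p = 4.3e-05). The call against knockout was lost without the set as a term (adjusted p = 0.062). Knockout was not called against wild type (-0.23, 95% interval -0.42 to -0.05, limma adjusted p = 0.053). This last difference was called without wild-type replicate 5 (adjusted p = 0.038), with the 70th percentile filter (0.042) and in a fit of the 6 arrays concerned (0.034). Between the knockout groups the 2 probe sets had log2 differences of the same sign (-0.46, not called, and -0.44). Over the 9 arrays the log2 signals of both Msrb3 probe sets correlated at r = -0.69, whereas the 2 Cat probe sets correlated at 0.88 and the 3 bright Sod2 probe sets at 0.96 to 0.99. The sources used here do not state which Msrb3 transcripts each probe set reads.

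The other reductases moved less. Msra, which reduces the form of methionine sulfoxide that the MSRB enzymes do not, read 471.9, 465.7 and 482.9 in knockout with GSH and 421.2, 447.8 and 381.2 in knockout, against 431.7, 362.0 and 374.6 in wild type. The 3 arrays with GSH lay above all 6 others. None of its comparisons was called: the log2 difference was 0.10 for knockout over wild type (95% interval -0.15 to 0.35), 0.19 for knockout with GSH over knockout (-0.06 to 0.44) and 0.29 for knockout with GSH over wild type (0.04 to 0.54, limma adjusted p = 0.061). The last was called under quantile normalisation (adjusted p = 0.048), with the 70th percentile filter (0.049) and without the intensity trend (0.043). Msrb2, the mitochondrial enzyme, read 221.8, 256.7 and 208.8 in knockout with GSH and 176.4, 195.7 and 204.5 in knockout, against 271.4, 272.9 and 233.3 in wild type. Knockout lay below both other groups on every array. The difference of -0.43 from wild type (95% interval -0.77 to -0.09) was not called (limma adjusted p = 0.057), and it was called without knockout replicate 4 (adjusted p = 0.046) and without the intensity trend (0.024). Knockout with GSH differed from knockout by 0.25 (95% interval -0.09 to 0.59, limma adjusted p = 0.24) and from wild type by -0.18 (-0.52 to 0.16, limma adjusted p = 0.37).

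**Figure D3:**
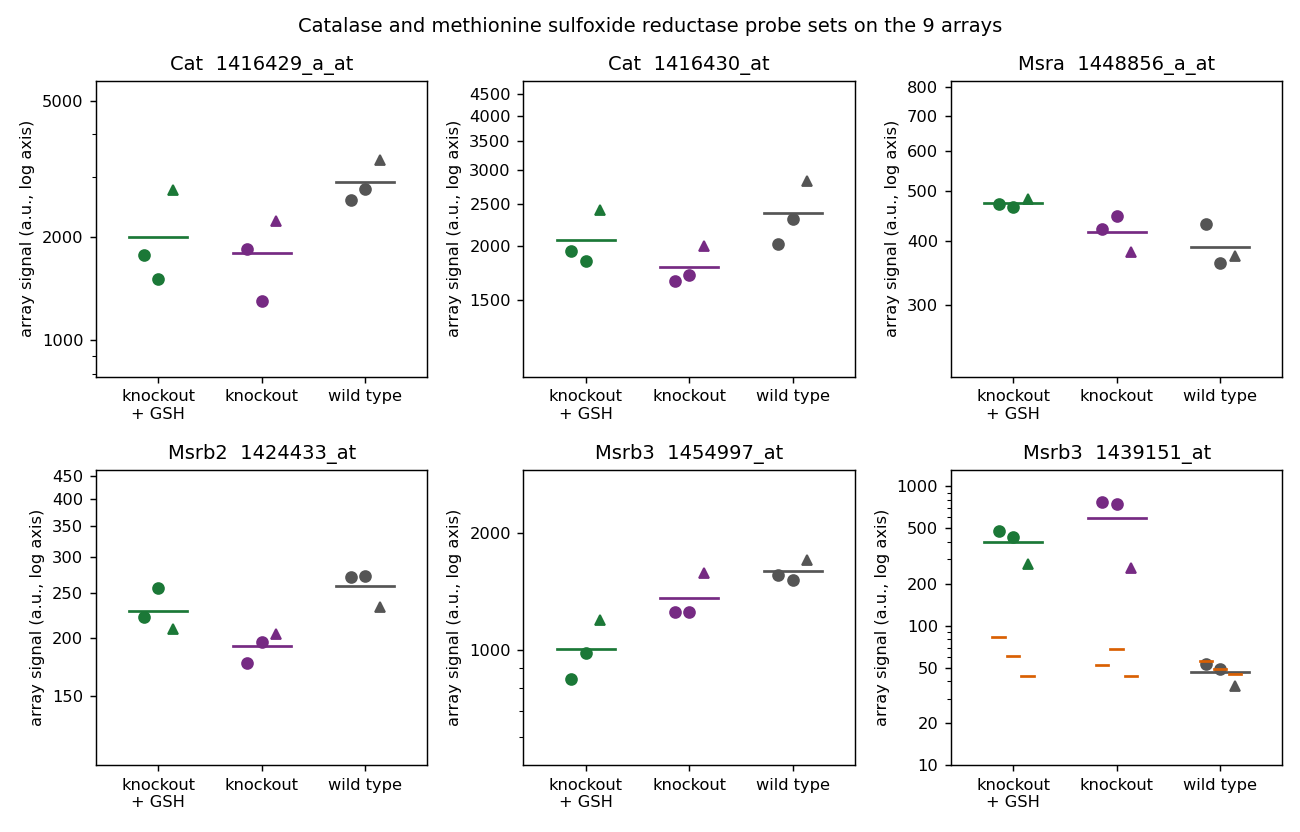
Array signal (arbitrary units, log axis) of the Cat, Msra, Msrb2 and Msrb3 probe sets, with knockout with GSH at the left, knockout in the middle and wild type at the right of each panel. Circles are arrays of set 2, triangles arrays of set 3, long bars group means and short orange bars each array's control level where signals were dim. Cat is lowest in knockout, and wild type is the lowest group for Msrb3 1439151_at (37.4 to 53.1, about the control level) but has the highest mean for 1454997_at (1513.3 to 1708.2), while both have lower means with GSH than in knockout.

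**Figure D4:**
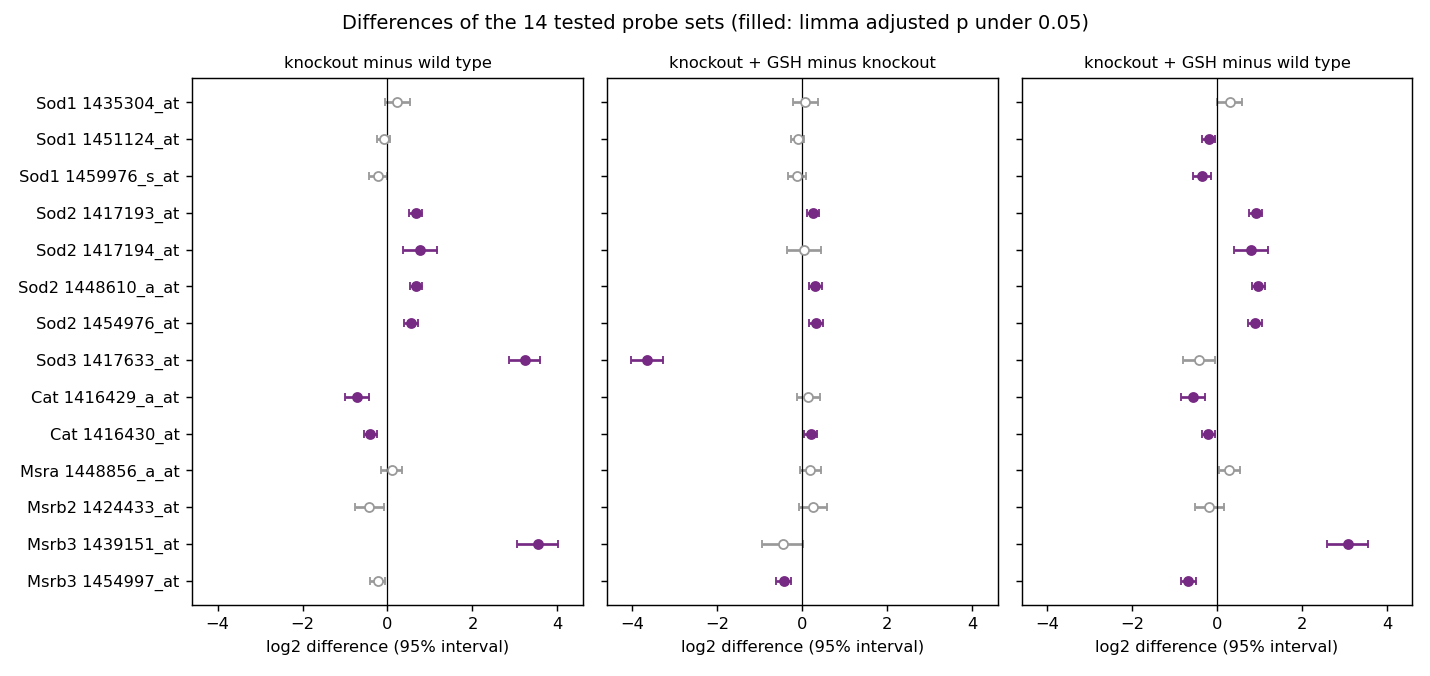
Log2 difference with 95% interval for the 14 tested probe sets in the 3 comparisons, filled where the limma adjusted p was under 0.05. Sod3 stands at 3.23 for knockout minus wild type and at -3.65 for knockout with GSH minus knockout, and the fitted points of Msrb3 1439151_at against wild type (3.54 and 3.07) rest on a wild-type signal at about the control level, where the text gives bounds. The other 12 lie within 1 of 0.

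Genes that feed these enzymes were counted over lists of related genes, with 1 probe set for each gene. Of 8 measured sources of superoxide, parts of the phagocyte and other NADPH oxidases with xanthine dehydrogenase listed too, 7 were higher and 0 lower in knockout than in wild type, where 14.6% of all probe sets were higher. Their median log2 difference was 0.53. With GSH 5 were higher and 0 lower than in knockout (median 0.50), where 18.4% of all probe sets were higher. Cybb, the catalytic subunit of the phagocyte oxidase, read 17031 ± 1771 in knockout with GSH and 10236 ± 838 in knockout, against 6801 ± 439.7 in wild type. Ncf1, the organiser subunit, read 6234.5 ± 79.1 in knockout with GSH and 3123 ± 201 in knockout, against 1409.5 ± 65.5 in wild type (log2 differences 1.00 between the knockout groups and 1.15 for knockout over wild type, limma adjusted p = 4.1e-07 and 2.7e-07). Several of these oxidase parts are abundant in macrophages, and the macrophage marker sums given above moved in the same direction. Their part was not tested.

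Among 15 measured genes of metal supply to the dismutases, 4 were higher and 1 lower in knockout than in wild type, and 6 were higher and 2 lower in knockout with GSH than in knockout. Over all probe sets 29.1% and 35.4% were called in these comparisons, so the first count is near the share of all. Slc39a14, a transporter that takes up manganese and zinc, was lower with GSH (851 ± 175 against 1548 ± 58.2 in knockout, log2 difference -0.88, limma adjusted p = 2.8e-05), whereas Sod2 was higher. Atox1, a copper chaperone, was higher with GSH (9025 ± 1544 against 6178 ± 869 in knockout, 0.54, limma adjusted p = 1.0e-04). Slc39a8, a zinc and manganese importer, was the 1 gene lower in knockout than in wild type (565 ± 100.4 against 869 ± 60.6, -0.63, limma adjusted p = 0.0011). Slc31a2, also in this list, was higher in knockout than in wild type (1676 ± 538 against 775 ± 55.6, 1.06, limma adjusted p = 9.0e-05). It was higher again with GSH than in knockout (1.08, limma adjusted p = 4.5e-05). Slc39a14 was also higher in knockout than in wild type (0.44, limma adjusted p = 0.0061).

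The peroxisome, which houses catalase, was covered by 2 lists. Of 16 measured import and membrane proteins 0 were higher and 2 lower in knockout than in wild type (median log2 difference -0.14), and 2 were higher and 0 lower in knockout with GSH than in knockout, against 29.1% and 35.4% of all probe sets called. The 2 lower in knockout were the membrane channel gene Pxmp2 (487 ± 91.1 against 779 ± 55.3 in wild type, -0.69, limma adjusted p = 0.0017) and Pex6, which recycles import receptors (-0.32, limma adjusted p = 0.044). Abcd2, a fatty acid transporter of the peroxisomal membrane, read 1229 ± 79.4 in knockout with GSH against 339 ± 46.3 in knockout (1.87, limma adjusted p = 1.2e-06). Of 17 measured matrix enzymes 3 were higher and 1 lower in knockout than in wild type, and 4 were higher and 1 lower in knockout with GSH than in knockout, near the 29.1% and 35.4% called over all probe sets. Scp2, a peroxisomal thiolase and lipid transfer protein, was higher in knockout than in wild type (0.57, limma adjusted p = 6.1e-05) and lower with GSH than in knockout (-0.35, limma adjusted p = 0.0013). Gnpat, which starts ether lipid synthesis, was lower in knockout than in wild type (-0.63, limma adjusted p = 3.4e-04).

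Of 13 measured partners of methionine repair, 2 were higher and 2 lower in knockout than in wild type, and 2 were higher and 3 lower in knockout with GSH than in knockout, near the 29.1% and 35.4% called over all probe sets. Msrb1, the selenium-containing MSRB of the cytosol and nucleus, read 8101 ± 478 in knockout with GSH and 4056 ± 189 in knockout, against 3435 ± 88.6 in wild type. It was higher with GSH than in knockout by 1.00 and in knockout than in wild type by 0.24 on the log2 scale (limma adjusted p = 3.3e-07 and 0.016). Txnrd1, whose enzyme recharges thioredoxin, read 3773 ± 318 in knockout with GSH and 2959 ± 88.7 in knockout, against 5501 ± 242 in wild type. Txnip, an inhibitor of thioredoxin, was higher in knockout than in wild type (0.74, limma adjusted p = 3.3e-05). In the methionine cycle and transsulfuration list 0 were higher and 1 lower of 8 in knockout than in wild type. With GSH 2 were higher and 2 lower than in knockout, against the same 29.1% and 35.4% of all probe sets called. Cth, which makes cysteine from cystathionine, read 225 ± 55.9 in knockout with GSH against 1599 ± 152 in knockout (-2.85, limma adjusted p = 1.5e-09).

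Of the other removers of hydrogen peroxide, 9 peroxiredoxin and glutathione peroxidase genes were measured. In knockout 2 were higher and 3 lower than in wild type, where 14.6% of all probe sets were higher and 14.6% lower. With GSH 2 were higher and 5 lower than in knockout, where 17.0% of all probe sets were lower. Gpx3, the secreted glutathione peroxidase, read 683 ± 87.6 in knockout with GSH and 1862 ± 67.5 in knockout, against 996 ± 23.2 in wild type. Its groups stood in the same order as those of the other secreted enzyme, Sod3, high in knockout and low with GSH. Gpx2, an epithelial glutathione peroxidase, was lower in knockout than in wild type (88.2 ± 17.0 against 317 ± 36.2, -1.86, limma adjusted p = 1.4e-05). Gpx7 of the endoplasmic reticulum was lower with GSH than in knockout (298 ± 54.4 against 1612 ± 102.5, -2.45, limma adjusted p = 2.2e-08).

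Between knockout with GSH and wild type, where 22.5% of all probe sets were higher and 22.3% lower, the counts higher and lower were 7 and 0 of 8 for superoxide sources and 4 and 2 of 15 for metal supply. They were 1 and 3 of 16 for peroxisome import and membrane proteins and 6 and 1 of 17 for peroxisomal enzymes. They were 2 and 4 of 13 for partners of methionine repair, 1 and 4 of 8 for the methionine cycle, 0 and 5 of 9 for other peroxide removers and 0 and 8 of 10 for matrix proteins.

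For each member the 3 genes whose log2 signal correlated best with its brightest probe set over the 9 arrays were listed. These points share groups and sets, so the values are descriptions. For Sod2 they were Sap30, Tent5a and Ms4a6d (r = 0.996 to 0.994), for Sod3 Iigp1, Klf2 and Ccl7 (0.988 to 0.981) and for Msrb3 Cyp39a1, Selenoi and Yipf5 (0.993 to 0.990). For Sod1 they were Eml4, Thoc1 and Efr3a (0.984 to 0.980) and for Cat Acsl3, Coq10b and Trp53inp2 (0.976 to 0.970). For Msra they were A630026N12Rik, Utp14a and Klhl32 (0.978 to 0.941) and for Msrb2 Cdk7, Cela3b and Tma16 (0.970 to 0.946).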

How the data were processed

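The deposited table holds a linear intensity per probe set and array, which the authors scaled to a trimmed mean of 500 (judged from the values). The array is named in the series design text, and for the summarising software no name is given in the sources used. Of 45101 probe sets 64 controls were left out. Intensities were taken to log2 with a floor of 0.1 (2 values), and probe sets at or above the median mean log2 intensity were kept (22519, a geometric mean of 116). Symbols came from GEO's platform annotation, in which 932 probe sets have several symbols and 9160 none. None of those with several held a member, and all 7 members matched the RefSeq gene table. limma 3.58.1 in R 4.3.3 fitted group and set over all 9 arrays with a trend on intensity (residual degrees of freedom 5, prior 6.08). The test was checked on simulated data. The control level of an array is the 95th percentile of its 27 bacterial control probe sets, which are not among the spikes that the labels name. Probe sets without a test are given as values, with the p from the fit without a filter.

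Named genes were every probe set of the members and of Nfe2l2, the 3 best correlated genes of each member, and up to 3 called genes with the smallest p per list and comparison, with 1 probe set per gene (the highest mean). The members and lists were chosen with earlier results of these data known. The titles number the arrays of both knockout groups 2, 3 and 4. Same-numbered arrays of these groups deviated from their group means together (r = 0.32, 0.29 and 0.67, the last within set 3). Arrays of different numbers within set 2 correlated at 0.39 and 0.24. Knockout replicate 4 and wild-type replicate 5, both of set 3, correlated at 0.70. These values followed the set and do not show that the numbers pair the arrays. Alternatives were other filters, floors, normalisations and models, set 2 alone, the submitters' own fold rule (at least 6 of 9 pairs at 1.5-fold) and leaving out each array. The number of arrays limits the precision.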

Additional observations from a re-analysis of the deposited data

How the results depend on the processing

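Of 702 values of the tested member probe sets under other settings, 620 kept their direction and side of the threshold, 61 lost a call, 12 gained one and 9 changed sign. Of 81 values of the 3 untested probe sets, which have no call, 9 changed sign, all of them of the dim Sod1 probe sets 1440222_at and 1447761_x_at when an array was left out, and 4 moved by more than the spread between arrays. Sod3 1417633_at (knockout against wild type, and knockout with GSH against knockout) and Sod2 1448610_a_at (all 3 comparisons) kept their calls under every alternative run, except that Sod2 with GSH against knockout did not pass the fold rule. Without the set as a term the probe sets called were 2774 between knockout and wild type, 4574 between the knockout groups and 6181 between knockout with GSH and wild type (6560, 7964 and 10074 with it), and the member probe sets called were 5, 2 and 5 (8, 6 and 10 with it). With the replicate number as a block in place of the set, 3253 probe sets and 5 member probe sets were called between knockout and wild type, and 6586 and 5 between knockout with GSH and wild type. Between the knockout groups, which carry the same replicate numbers, the block left 5824 probe sets and 5 member probe sets, and changed no member call but that of Cat 1416430_at. By the fold rule 2187, 3320 and 4389 probe sets and 5, 1 and 6 member probe sets passed.

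The changes of sign of tested probe sets were all in differences that were not called under that setting. With the replicate block Sod1 1451124_at turned to 0.23 for knockout against wild type and 0.12 for knockout with GSH against wild type, and Sod1 1459976_s_at to 0.054 for knockout against wild type. Between the knockout groups Sod2 1417194_at turned to -0.0073 under quantile normalisation and to -0.20 in set 2 alone, and leaving out an array gave -0.18 to 0.19. There leaving out an array gave -0.0066 to 0.12 for Sod1 1435304_at and -0.21 to 0.0044 for Sod1 1459976_s_at. The 4 moved values were the differences of Sod3 1417634_at with GSH, which move with 16 added to every intensity and with a floor of 50, so only bounds are given for them. Dim signals limit this probe set and Msrb3 1439151_at in wild type. The causes of the other changes were not tested.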
